A study of Homo sapiens with 11 samples.

Results

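Glucocorticoid receptor (GR) occupancy was compared between 2 isogenic HEK293 lines, a human embryonic kidney cell line, by chromatin immunoprecipitation and sequencing with an antibody against GR. The first line stably expressed wild-type GR and the other stably expressed a SUMOylation-defective GR, called the 3KR line. Both were made with a system that places the transgene at a prepared genomic site (FRT), and each is 1 cell population. Cells of both lines spent 72 h in medium stripped of steroids and then received 100 nM dexamethasone, a synthetic glucocorticoid, for 1 h, so that all groups described here were treated and none was hormone-free. Each line had 2 GR libraries, which the series calls biological duplicates and which are named here wild-type library 1 and 2 and 3KR library 1 and 2. The compared members were all 30115 sites in the GR peak lists of these lines, 11259 in the wild-type list and 18856 in the 3KR list, out of 51024 listed regions in the whole series. The other regions belong to a GR list of a control line with no GR transgene (1016 sites) and to SUMO-2/3 lists of the wild-type (12109 sites) and 3KR lines (7784 sites). Nothing in the labels says whether the duplicates came from separate cultures, so each p-value below measures the spread between these libraries, which may be technical. Peak lists hold no marker genes, so the labelled cell type could not be checked on them.

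GR is a nuclear receptor that stays largely in the cytoplasm until it binds a glucocorticoid, then enters the nucleus and binds glucocorticoid response elements, most of them in enhancers at a distance from promoters. SUMO-2 and SUMO-3 are small proteins that are joined to lysines of other proteins, and their attachment to GR is known mainly for limiting receptor activity at promoters with several response elements. In a 3KR receptor the acceptor lysines are replaced by arginine, which keeps the positive charge but cannot take up SUMO. A tag is 1 aligned sequencing read, the summit is the position of the most tags in a peak, and the hg19 human genome build gives all positions. The sites are given by position and were not assigned to genes here.

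Each line's list gives 1 start and 1 end per site for both duplicates, with the tags, length and summit of each library's own peak beside them. In no site of either line was a library's own peak shorter than the listed site. The listed interval equalled the peak of library 1 at 4382 wild-type and 3402 3KR sites and the peak of library 2 at 1948 and 7080 sites. It equalled neither at 4929 and 8374 sites, and equalled both at 0. A site is therefore read as the stretch that the peaks of the duplicates share, and the number of sites is 1 value per line with no replicate error. Tags in listed peaks came to 1868745 and 3489624 in wild-type libraries 1 and 2 and to 4696781 and 4291083 in 3KR libraries 1 and 2. No listed peak had fewer than 51 tags, so low values are cut off, most of all in wild-type library 1, the library with the fewest tags.

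Most wild-type sites were found again in the 3KR line, and the 3KR list added many more. At least 1 shared base pair was found for 10006 of 11259 wild-type sites (88.9%, exact Clopper-Pearson 95% interval 88.3 to 89.4%, counting error only) and for 10002 of 18856 3KR sites (53.0%, 52.3 to 53.8%). Matches formed 10090 pairs, of which 9763 joined a single wild-type site to a single 3KR site. In the rest, a site of one line spanned several of the other: 81 wild-type sites overlapped 2 or more 3KR sites, 81 3KR sites overlapped 2 or more wild-type sites, and none overlapped more than 3. The 9763 pairs, called matched sites below, carry the comparison of tags, lengths and summits.

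Matched sites covered nearly the same stretch in both lines. The median overlap was 916 bp, or 88.3% of the wider site, and the smallest was 22 bp. Median site width was 974 bp in the wild-type line and 1004 bp in the 3KR line, with the 3KR site wider at 5411 and the wild-type site wider at 4320 of the 9763. The width ratio, 3KR over wild type, lay between 0.691 and 1.65 from the 5th to the 95th percentile. A difference of over 2-fold was found at 336 sites. The site centres lay a median of 45 bp apart, and at 0 sites were both edges equal. A reciprocal overlap below 50% was found at 360 matched sites, and an overlap under 100 bp at 1.

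The libraries differed in strength as much within a line as between lines. Median tags per matched site were 135 and 246 in wild-type libraries 1 and 2, against 256 and 215 in 3KR libraries 1 and 2, with interquartile ranges of 92 to 207, 168 to 372, 169 to 384 and 144 to 332. The wild-type line held both the weakest library and one as strong as the 3KR libraries, so the lines overlapped. Wild-type library 2 had a median of 1.73-fold the tags of library 1 at the same site, and 3KR library 2 had 0.854-fold the tags of 3KR library 1. Between lines the median ratio, 3KR over wild type, was 1.83 and 1.56 against wild-type library 1 but 1.04 and 0.884 against wild-type library 2. Both 3KR libraries were thus above wild-type library 1, while one was above and the other below wild-type library 2, and the values below are centred to remove this.

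Duplicates ranked the matched sites alike, and libraries of different lines did so less closely. Spearman's rho of tags across the 9763 sites, as a description, was 0.815 between the wild-type and 0.873 between the 3KR duplicates. The 4 pairs made of a wild-type and a 3KR library gave 0.779, 0.720, 0.638 and 0.710. The lowest of these was between wild-type library 2 and 3KR library 1. All points share the regions chosen by the lists, and each library counts tags in its own peak. Peak length ordered less well than tags, with a rho of 0.662 and 0.748 between duplicates and 0.568 to 0.640 between lines. After centring on the median of each library, the SD of the log2 tag ratio was 0.51 and 0.44 between duplicates and 0.54 to 0.71 between lines. Centring per chromosome as well brought this to 0.49 and 0.42 between duplicates and 0.49 to 0.63 between lines. At this scale the share of sites over 2-fold apart was 5.14% for the wild-type and 2.68% for the 3KR duplicates, against 4.71%, 7.39%, 10.4% and 7.20% for the pairs between lines. The wild-type duplicates therefore differed from each other by about as much as wild-type library 1 differed from 3KR library 1.

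**Figure D1:**
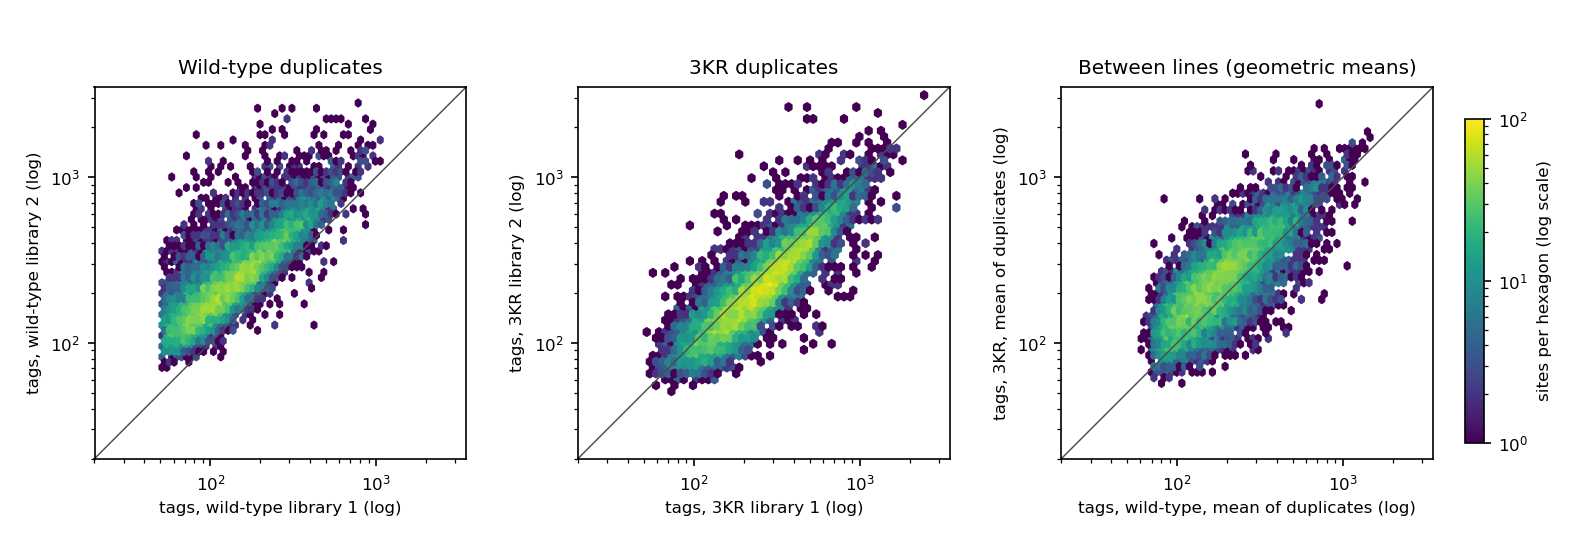
GR tags at the 9763 matched sites on log scales, for the wild-type duplicates (left), the 3KR duplicates (middle) and the geometric means of each line (right); colour gives the number of sites per hexagon and the line marks equal tags. The cloud of the wild-type duplicates lies above the line, stops at 51 tags in library 1 and has a Spearman rho of 0.815, against 0.873 for the 3KR duplicates.

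Whole chromosomes differed between the lines. The median log2 tag ratio, 3KR over wild type and centred per library, had the same sign in all 4 library pairs on 17 of 23 chromosomes, higher in the 3KR line on 11 and higher in the wild-type line on 6. The chromosome medians had an SD of 0.12 and 0.11 between duplicates and of 0.26 to 0.36 between lines. On chromosome 18 (191 matched sites) the median ratio was 0.57 on the log2 scale, with 0.47 to 0.68 over the 4 pairs. On chromosome 6 it was 0.35 and on chromosome 2 it was 0.30. At the other end stood chromosome 21 (124 matched sites) with -0.67, from -0.75 to -0.53, chromosome 14 with -0.57 and chromosome 3 with -0.35. On chromosomes 17 and 19 the duplicates moved too, library 2 above library 1 by 0.25 and 0.19 on chromosome 17 in the wild-type and 3KR line and by 0.28 and 0.20 on chromosome 19, and the 4 pairs between lines did not share a sign there. Tags were centred per library and chromosome for this reason, so a change below is a change relative to the other matched sites of the same chromosome.

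**Figure D2:**
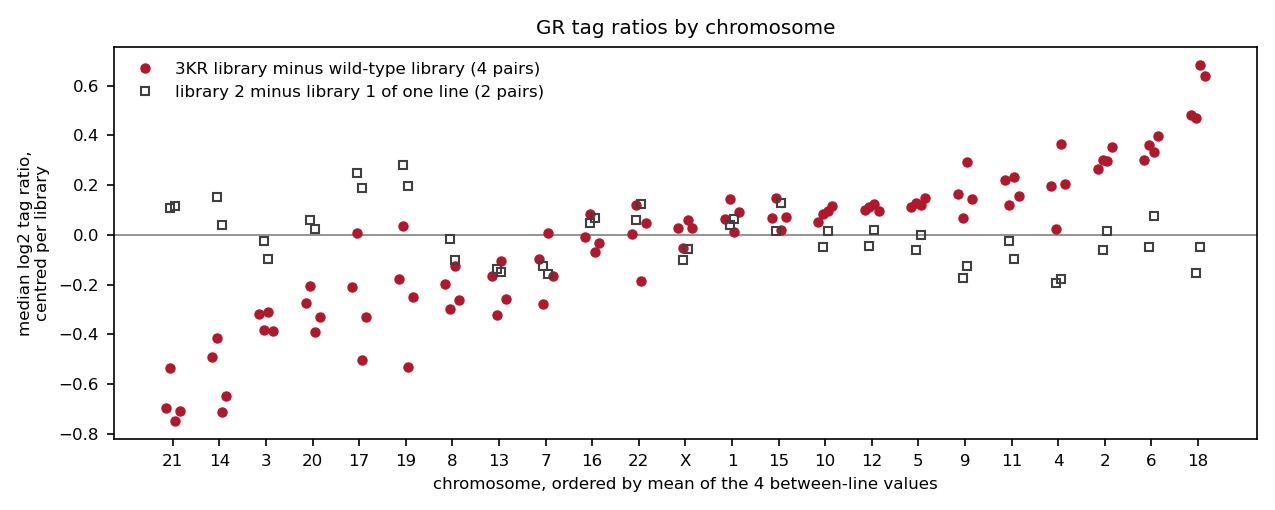
Median log2 GR tag ratio of each chromosome after centring per library, for the 4 pairs of a 3KR and a wild-type library (filled circles) and the 2 duplicate pairs (open squares). Chromosomes 21, 14 and 3 lie lowest and 6, 2 and 18 highest, with all 4 filled circles on one side of 0, while the squares stay between -0.19 and 0.28.

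With peaks taken as listed, no matched site passed the test for a tag change. The edgeR quasi-likelihood test with offsets per library and chromosome called 0 of 9763 sites higher in the 3KR line (0.0% of those tested) and 0 higher in the wild-type line (0.0%) at a Benjamini-Hochberg adjusted p under 0.05. The smallest adjusted p was 0.0885, while 805 sites higher in the 3KR line and 918 higher in the wild-type line had an unadjusted p under 0.05. DESeq2 with the same offsets called 406 and 419, and limma on log2 tags called 0 and 0. Of the DESeq2 calls, 335 and 359 were also made by edgeR with the replicate number added to the fit as a block. Without wild-type library 1, in a fit where the lone wild-type library is assumed to vary like the 3KR libraries, edgeR called 17 and 129. From the 5th to the 95th percentile the centred line difference ran from -0.78 to 0.71 on the log2 scale, with a median standard error of 0.23. It passed 1 at 132 sites in the 3KR direction, 129 of them with no overlap between the centred values of the lines, and at 211 in the wild-type direction, 196 of them with no overlap. Over all 9763 sites, whatever the size of the difference, the lines did not overlap at 25.1% with the 3KR line above and at 25.0% with the wild-type line above. On simulated tags for these 9763 sites, the test recovered 0.5% of 200 sites changed by 1.5-fold, 26% of those changed by 2-fold and 92.5% of those changed by 3-fold. The simulated sites all had the same dispersion, so these shares may be too high for the real sites. A site on chromosome 5 with a change of 2.75 on the log2 scale had an edgeR adjusted p of 0.0885. With peak length added to the offset, the change at this site was 0.81. An observed difference of over 3-fold was thus also left uncalled with these duplicates when peaks of any length entered.

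Some peaks ran together. At 454 matched sites, a library's own peak was shared with a neighbouring site, so the same tags were counted for both. Leaving these out, a choice made after seeing the data, edgeR called 15 of 9309 sites higher in the 3KR line (0.161%) and 14 higher in the wild-type line (0.15%). The size of the change was 1.43 to 2.74 on the log2 scale for the former and 1.33 to 2.45 for the latter, with adjusted p from 0.0113 to 0.0432 and from 0.0327 to 0.0484. DESeq2 on all 9763 matched sites called all 29 as well. In all 15 the peaks of both 3KR libraries were longer than those of both wild-type libraries, and in all 14 they were shorter. The share of such sites among the 9309 was not counted. Tag and length changes had a rho of 0.719 across matched sites, so a choice by tags favours sites that differ in length. In the same 9309 sites with peak length added to the offset, which compares tags per base pair of peak, edgeR called 0 and 0. Of the 29, 13 of the 15 and 12 of the 14 kept their sign there, and the log2 change fell to less than 50% of its size at 13 of the 15 and 9 of the 14. It stayed above 1 in size at 2 of the 15 and 4 of the 14.

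The site with the largest rise in the 3KR line lay on chromosome 5, at 42496325 to 42497162 in the wild-type list and at 42494250 to 42497592 in the 3KR list. It held 68 and 97 tags in wild-type libraries 1 and 2 and 796 and 719 in 3KR libraries 1 and 2, in peaks of 848, 844, 3364 and 3660 bp. Both 3KR libraries stood far above both wild-type libraries in tags and in length. A site on chromosome 8, at 110589109 to 110590065 in the wild-type list, had 96 and 183 tags against 795 and 657, in peaks of 957, 1006, 2653 and 2656 bp. On chromosome 6, a wild-type site at 125142870 to 125144021 with 222 and 292 tags fell within a 3KR site at 125142397 to 125150064 with 1509 and 1321 tags. The 3KR peaks there were 7668 and 8263 bp long, against 1466 and 1152 bp. In these 3 cases the 3KR interval covered the whole wild-type interval and extended past both of its ends.

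The largest fall was the reverse case on chromosome 1, a wild-type site at 48541799 to 48545816 that met a 3KR site at 48541919 to 48542845. Its tags were 418 and 1462 in the wild-type line and 217 and 190 in the 3KR line, and its peaks were 4018 and 9341 bp against 978 and 1524 bp. Also on chromosome 1, the site at 6150696 to 6151860 in the wild-type list had 210 and 386 tags against 106 and 81. There the peaks were closer in length, 1165 and 1671 bp against 801 and 880 bp, and the groups did not overlap in either measure. In the 9309 sites the change was -2.04 on the log2 scale with peaks as counted and -1.24 per base pair of peak. On chromosome 13, at 75552967 to 75554563, tags of 276 and 421 stood against 114 and 120 in peaks of 1641, 1912, 1417 and 1409 bp, a change of -1.67 as counted (edgeR adjusted p = 0.0396) and -1.49 per base pair (adjusted p = 0.0584).

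A comparison over peaks of like length gave more calls, at smaller changes, in a subset whose choice affects its own spread. The longest of the 4 peaks exceeded the shortest by at most 25%, and no peak was shared, at 3154 matched sites, a subset also set after seeing the data. The limit itself keeps sites whose libraries agree in length and, since tags follow length, in tags. The duplicates therefore agreed more closely by selection, with a rho of 0.904 (wild type) and 0.909 (3KR) and an SD of the centred log2 ratio of 0.30 and 0.31, against 0.39 to 0.46 between lines. The test takes its spread from these selected sites, so its p-values may be too small. The edgeR test on this subset called 50 sites higher in the 3KR line (1.59% of those tested) and 65 higher in the wild-type line (2.06%), with 313 and 350 at an unadjusted p under 0.05. Changes ran from 0.60 to 1.25 on the log2 scale for the 50, with a median of 0.83, and from 0.58 to 1.33 for the 65, with a median of 0.86. At all 115 the centred values of the 2 lines did not overlap, which was also the case, with the 3KR line above at 25.7% and the wild-type line above at 25.1%, over all 3154 sites, so it adds nothing to the call. The called sites lay on 16 and 20 chromosomes. The calls rest on 3KR library 2: without it edgeR called 0 and 0, and without 3KR library 1 it called 20 and 36. Without wild-type library 2 it called 29 and 67, and DESeq2 on all 4 libraries called 23 and 29. With the length limit set between the duplicates of each line but not between lines, edgeR called 370 and 391 of 4680 sites.

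Some of these sites kept their call with another test and with 2 other scalings, all on the 4 libraries. DESeq2, edgeR with peak length in the offset and edgeR with offsets per 10 Mb window in place of chromosomes all called 14 of the 50 and 18 of the 65. The largest of the 14 was on chromosome 13, at 31317245 to 31318375 in the wild-type list, with 117 and 178 tags in the wild-type libraries and 411 and 412 in the 3KR libraries. Both 3KR libraries exceeded both wild-type libraries while the peaks measured 1276, 1131, 1307 and 1275 bp, and the change was 1.25 ± 0.18 (SE) on the log2 scale (edgeR adjusted p = 0.00612). On chromosome 4, at 129482835 to 129483650, tags rose from 57 and 85 to 232 and 193, by 1.11 ± 0.21. On chromosome 16, at 11054884 to 11055789, they rose from 86 and 152 to 292 and 310, by 1.09 ± 0.19. These 3 sites had no overlap between lines in raw tags either, but they were picked by their tags. On chromosome 19, at 46874824 to 46875581, tags were 65 and 110 against 215 and 179, a change of 1.00 ± 0.22.

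Of the 18 sites higher in the wild-type line, the largest change was on chromosome 9, at 4423109 to 4424116 in the wild-type list. Tags were 268 and 319 in the wild-type libraries and 190 and 133 in the 3KR libraries, in peaks of 1082, 1094, 999 and 932 bp. The wild-type values were the higher ones although wild-type library 1 had the fewest tags in all, and the change was -1.33 ± 0.19 (SE) on the log2 scale (edgeR adjusted p = 0.00612). A site on chromosome 15, at 93070172 to 93071062, had 119 and 214 tags against 95 and 89, a change of -1.24 ± 0.21. Another on chromosome 15, at 100974094 to 100975388, had 208 and 320 against 154 and 159, a change of -1.16 ± 0.18, with peaks of 1295, 1474, 1318 and 1550 bp. On chromosome 2, at 1617339 to 1618336, tags of 177 and 255 stood against 154 and 116, a change of -1.16 ± 0.20. At each of these 4 sites the lowest wild-type tag count was above the highest 3KR count, without any scaling. The 8 sites described are the 4 largest changes in each direction, named after their values were seen.

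**Figure D3:**
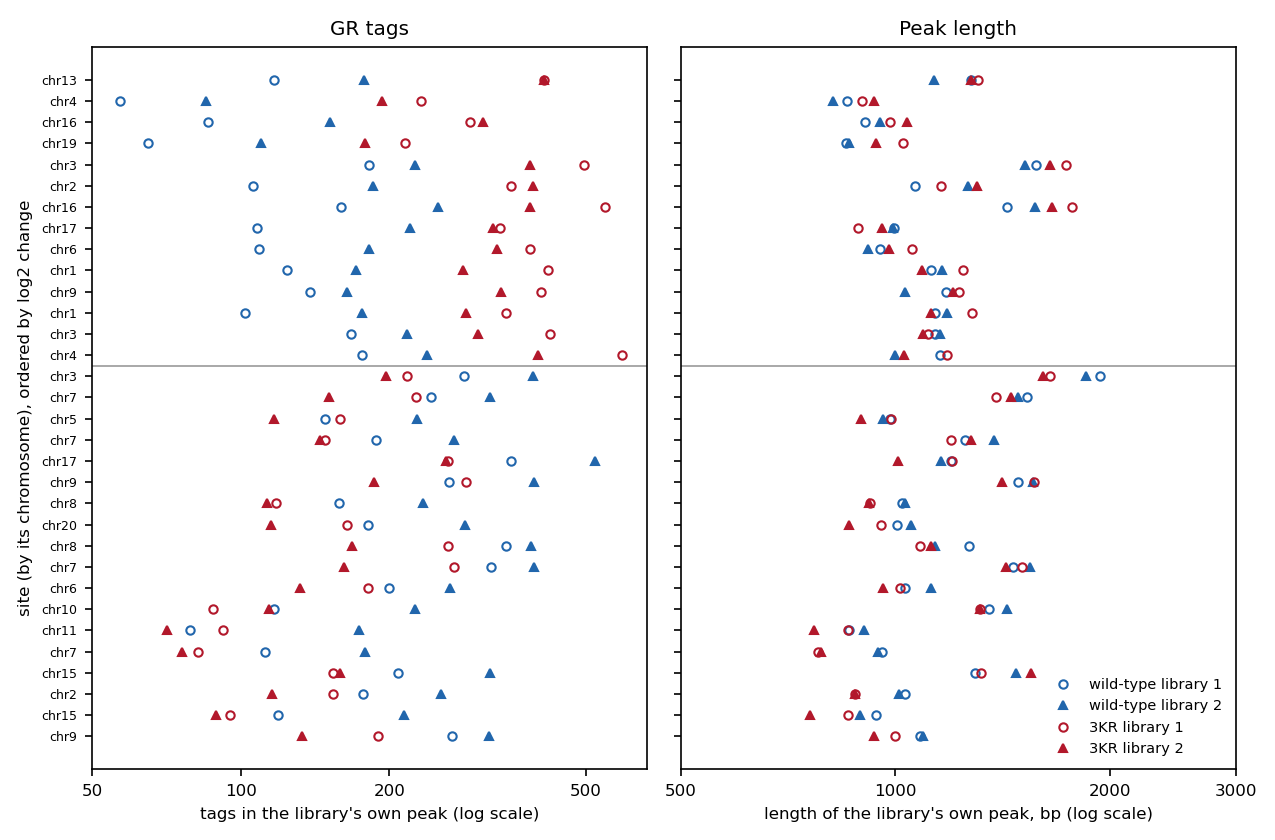
GR tags (left) and length of each library's own peak (right), both on log scales, for the 14 sites higher in the 3KR line (above the grey line) and the 18 higher in the wild-type line (below it) that DESeq2, edgeR with peak length in the offset and edgeR with window offsets also called, each marked by its chromosome. Open circles are library 1 and filled triangles library 2. Centred values of the lines do not overlap at these sites, but the tags drawn are raw. Raw tags overlap at some sites, as on chromosome 9 at 4634786 to 4636218 (wild-type 264 and 393, 3KR 286 and 186). The longest of the 4 peaks at a site is at most 25% longer than the shortest.

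SUMO-2/3 ChIP in the same lines gave a readout that the GR values did not enter. Of the 9763 matched GR sites, 5401 overlapped no SUMO-2/3 site, 1931 overlapped one in each line, 468 only one of the 3KR list and 1963 only one of the wild-type list. GR tags were higher in the 3KR line at the 468, with a median centred log2 ratio of 0.30 to 0.31 over the 4 library pairs and with the 3KR line higher at 80.1% of sites. They were lower at the 1963, with -0.22 to -0.14 over the 4 pairs and the 3KR line higher at 32.6%. At sites with SUMO-2/3 in both lines the median ran from -0.05 to 0.03, and at sites with none from 0.01 to 0.06. Within a line, library 2 against library 1, the median stayed between -0.06 and 0.03 in these classes. GR tags thus leaned to the line in which SUMO-2/3 was listed. With centring per 10 Mb window in place of chromosomes the medians were 0.21 to 0.26 and -0.14 to -0.09, the same signs at a smaller size. In the 3154 sites of like peak length they were 0.17 to 0.27 at 100 sites and -0.14 to -0.07 at 696. An exact permutation of 2 against 2 libraries cannot reach 0.05, so no test was made of these medians.

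**Figure D4:**
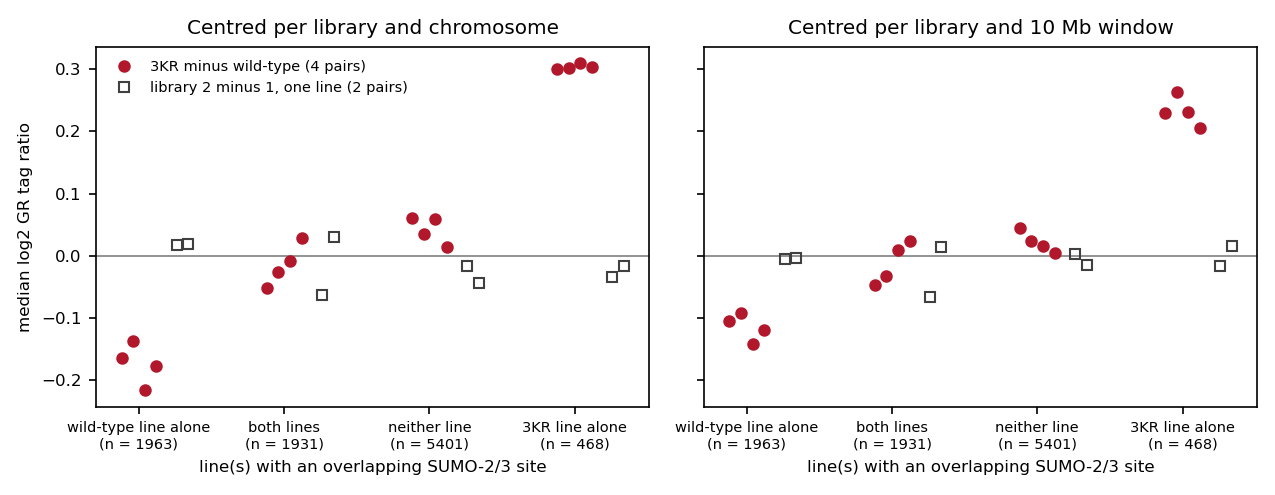
Median log2 GR tag ratio at matched sites grouped by the line or lines with an overlapping SUMO-2/3 site, centred per library and chromosome (left) or per library and 10 Mb window (right). Filled circles are the 4 pairs of a 3KR and a wild-type library and open squares the 2 duplicate pairs; the circles lie at 0.30 to 0.31 for SUMO-2/3 in the 3KR line alone and at -0.22 to -0.14 for the wild-type line alone in the left panel.

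The sites called among peaks of like length divided the same way. A SUMO-2/3 site of the 3KR line alone was present at 11 of the 50 sites with more GR in that line (22.0%), and at 0 of the 65 higher in the wild-type line, against 3.17% of all 3154. A SUMO-2/3 site of the wild-type line alone was present at 34 of the 65 (52.3%) and at 4 of the 50 (8.0%), against 22.1% of all 3154. Among the 14 and 18 sites that DESeq2 and the length and window offsets also called, these numbers were 5 of 14 and 10 of 18. Of the sites named above as higher in the 3KR line, those on chromosomes 13 and 4 overlapped a SUMO-2/3 site in that line alone, the one on chromosome 16 overlapped one in each line, and the one on chromosome 19 overlapped none. Of those higher in the wild-type line, the sites on chromosomes 9 and 2 and the second of the chromosome 15 sites overlapped one in the wild-type line alone, and the first chromosome 15 site overlapped none. The GR made from the 3KR transgene cannot be SUMOylated at the replaced lysines. Some GR in both lines may not come from the transgene, since the control line with no GR transgene had 1016 listed GR sites. The SUMO-2/3 antibody also reads SUMO-2/3 on any protein, so the SUMO-2/3 lists do not tell which protein carried it. Sites that the control line with no GR transgene also held (775 of the 9763) showed no lean, with -0.03 to 0.05 over the 4 pairs.

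The tag ratio also shifted over stretches of several megabases within a chromosome. Medians of the chromosome-centred tags were taken over 10 Mb windows with at least 20 matched sites, a step added after seeing the data, and tested with limma over the 4 libraries. Of 220 windows, 12 were higher in 3KR cells (5.45%) and 9 higher in wild-type cells (4.09%), on 11 chromosomes and holding 829 of 8878 sites, with 63 windows at an unadjusted p under 0.05. The changes were 0.26 to 0.65 on the log2 scale. The highest was on chromosome 2 from 160 to 170 Mb, where the centred medians were -0.29 and -0.35 in the wild-type and 0.45 and 0.21 in the 3KR libraries (limma adjusted p = 0.0267). On chromosome 8 from 110 to 120 Mb they were -0.27 and -0.30 against 0.31 and 0.33. The lowest was on chromosome 8 from 30 to 40 Mb, with 0.17 and 0.45 against -0.36 and -0.17, and a window on chromosome 14 from 90 to 100 Mb had 0.13 and 0.28 against -0.25 and -0.13. In each of these windows the lines did not overlap. The windows were picked by a test on the same medians, so this adds nothing to the call. Without chromosome centring, 18 of the 21 windows kept their sign, and windows on chromosomes 21 (40 to 50 Mb), 6 (150 to 160 Mb) and 2 (20 to 30 Mb) changed it. Without wild-type library 1, 5 and 4 windows were called.

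SUMO-2/3 tags at sites with no GR moved with these windows. Counting windows with at least 5 SUMO-2/3 sites that overlapped no GR site, the SUMO-2/3 ratio had the sign of the GR ratio in 9 of 9 windows with more GR tags in 3KR cells and in 8 of 8 with more in wild-type cells. The sizes were close in some windows, as on chromosome 2 from 0 to 10 Mb with a GR change of -0.51 and a SUMO-2/3 change of -0.53. They were far apart in others, as on chromosome 6 from 160 to 170 Mb with -0.57 and -0.16 and on chromosome 7 from 140 to 150 Mb with -0.29 and -0.06. The share of like signs over all tested windows was not counted, so the agreement may not be particular to called windows. Among windows not called, chromosome 1 from 0 to 10 Mb had -0.21 and -0.19. Chromosome 10 from 40 to 50 Mb, also not called, had -0.20 and 0.20. The part of such windows in the single-site results was not tested. With centring per window, the call was kept at 26 of the 50 and 45 of the 65 sites of like length. The sign stayed at all 115. These were called at changes of 0.58 or more in size, against window changes of 0.26 to 0.65, so their sign could hardly turn.

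The 10 matched sites with the most tags changed little between the lines, under a ranking that favours sites strong in both. By mean rank of tags, the first was on chromosome 6, at 35693068 to 35696205 in the wild-type list, with 874 and 2331 tags in the wild-type and 1756 and 1996 in the 3KR libraries, though one of its peaks was shared with a neighbouring site. The second was on chromosome 17, at 43650725 to 43660212, with 937 and 1874 against 1645 and 1538 tags, and was also the longest site by mean peak length (9488, 11641, 11531 and 8897 bp). The third was on chromosome 19, at 18808342 to 18810605, with 1095 and 1639 against 1510 and 1510 tags. In all 3 the 3KR values lay between the wild-type ones, so the lines overlapped. The centred changes were -0.34, 0.17 and 0.02 on the log2 scale, with edgeR adjusted p of 0.603, 0.752 and 0.974. Among the 10 sites with the most tags the changes ran from -0.34 to 0.30, and none passed the test. Strong sites as a set were not less spread. The SD of the centred log2 ratio between lines was 0.44 to 0.59 in the top tag quintile (1953 sites). In the bottom quintile it was 0.47 to 0.59.

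Broad sites showed how much a single library can decide. On chromosome 1, at 234743446 to 234744390 in the wild-type list, wild-type library 1 had a peak of 945 bp with 85 tags, while wild-type library 2 had 11265 bp and 1812 tags and the 3KR libraries had 10050 and 11175 bp with 1136 and 1621 tags. Wild-type library 2 stood with the 3KR libraries there and wild-type library 1 apart. On chromosome 6, at 125371461 to 125374491, both wild-type libraries were short (3687 and 3031 bp, 633 and 813 tags) and both 3KR libraries long (12588 and 19296 bp, 2450 and 3112 tags). The centred tag change was 1.24 (edgeR adjusted p = 0.166), and per base pair it was -0.62. At the other end of the scale, the shortest site by mean length lay on chromosome 1, at 40259323 to 40259820, with peaks of 501, 588, 595 and 549 bp and 54, 123, 108 and 83 tags. The lines overlapped in both measures there. The 5 shortest sites had changes of -0.31 to 0.49, and none passed the test.

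In peak length the library medians of the lines overlapped, and no single site passed the test. The median length at matched sites was 1031 and 1183 bp in wild-type libraries 1 and 2 and 1139 and 1084 bp in 3KR libraries 1 and 2, so both 3KR medians lay between the wild-type ones. The share of sites with a length difference over 1.5-fold was 21.6% and 13.5% between duplicates and 17.4% to 24.0% between lines. The limma test on log2 length, centred per library and chromosome, called 0 of 9763 sites longer in the 3KR line (0.0%) and 0 shorter (0.0%), with 419 and 328 at an unadjusted p under 0.05 and a smallest adjusted p of 0.427. Very long peaks were most frequent in wild-type library 2, with 188 over 5 kb, against 14 in wild-type library 1 and 48 and 113 in the 3KR libraries. Tags and length were bound together in every library, with a rho of 0.772, 0.850, 0.780 and 0.823 across sites. Their changes between lines also moved together, with a rho of 0.719 across sites, both read from the same peaks.

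GR summits stood at nearly the same base pair in both lines. The summit is counted from the start of a library's own peak, which is known exactly only where that peak equals the listed site. A library of each line met this condition at 3069 matched sites, where the summits of the lines were a median of 13 bp apart, with an interquartile range of 6 to 23 bp. At 43.6% of them the distance was at most 10 bp, at 94.8% at most 50 bp and at 98.0% at most 100 bp. The 3KR summit lay at the higher coordinate at 1545 sites, at the lower at 1450 and at the same base at 74, close to an even split. Between duplicates, where a summit could be read to within 10 bp, the median distance was 14 bp in the wild-type line (115 sites) and 13 bp in the 3KR line (165 sites). The same rule gave 12 bp at 1295 sites between library 1 of each line. Summits of the lines were therefore as close as summits of duplicates at this resolution.

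**Figure D5:**
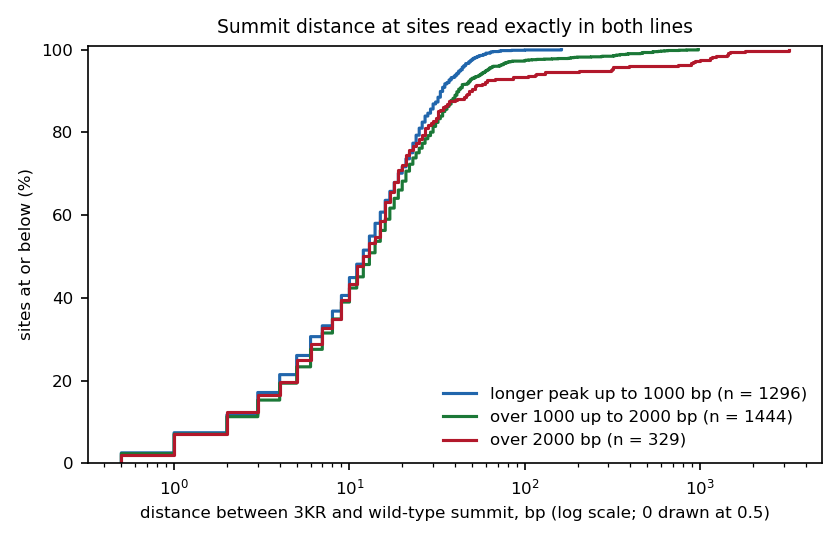
Cumulative share of the 3069 exactly read matched sites against the distance between the 3KR and the wild-type summit in bp (log scale), by the length of the longer of the 2 peaks. The curves coincide up to about the median, and those of longer peaks then flatten, with 97.7% of peaks up to 1000 bp, 93.1% of those over 1000 and up to 2000 bp and 90.6% of longer ones within 50 bp.

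Large summit shifts were most frequent in long peaks. A distance over 500 bp was found at 23 of the 3069 sites. Of these, 13 were among the 329 with a peak over 2000 bp and 10 among the 1444 whose longer peak was over 1000 and up to 2000 bp. There were 0 among the 1296 with peaks up to 1000 bp. The largest was 3199 bp, on chromosome 1 at 39249991 to 39251954 in the wild-type list, where the 3KR interval ran from 39247616 to 39252577. On chromosome 1, at 229364349 to 229368832, the fourth-ranked site by tags, the summit differed by 1489 bp while tags were nearly equal (1061 and 1614 against 1426 and 1468). All 4 summits were readable to within 50 bp at 1272 matched sites, which entered a limma test that called 3 (0.236%), with 11 at an unadjusted p under 0.05. They lay on chromosome 9 at 1461695 to 1463294, with a summit change, 3KR minus wild type, of -755 bp, and on chromosome 13 at 49523589 to 49525313 and at 111245716 to 111246773, with -752 and -372.5 bp, all toward lower coordinates. No peak at these 3 sites was over 2000 bp long. Tags at these 3 changed by -0.04, -0.06 and -0.27 on the log2 scale, so the position of most tags differed where their number did not pass the test. Leaving out wild-type library 1 or 2 or 3KR library 1 gave 18, 13 and 7 calls.

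Sites listed in 1 line alone were weaker than matched ones. The 1253 sites of the wild-type line alone had median tags of 97 and 184 in its libraries, against 136 and 248 at its 10006 matched sites, and median widths of 933 and 977 bp. The 8854 sites of the 3KR line alone had 144 and 135 against 258 and 217 tags, and widths of 902 and 1007 bp. In both lines the single-line sites were the lower ones in each library. Duplicates ordered them less well, with a rho of 0.693 against 0.808 in the wild-type line and 0.758 against 0.863 in the 3KR line. A site of the control line was overlapped by 2.63% of the sites of the wild-type line alone and by 1.06% of those of the 3KR line alone, against 8.10% of matched sites of either line.

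Few of the single-line sites were near misses. The nearest site of the other line was a median of 27.1 kb away for the 1253 and 54.2 kb away for the 8854. It lay within 1 kb at 103 (8.22%) and 325 (3.67%), and within 500 bp at 64 and 198. A width under 200 bp was found at 16 of 1253 and 40 of 8854. A peak present in a single library of a line is in neither list, so a site absent from a list may still have been a peak in one duplicate, which these lists cannot show. The share of 3KR sites that matched was 49.1% when only sites above a fold enrichment of 15 in both libraries of their list were used (7173 3KR sites), a limit that removed sites from both lists.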

How the data were processed

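CASAVA, Bowtie 0.12.9 (a read aligner) and the hg19 build are named in the submitters' processing notes. Which peak caller was run is not given in the sources used here. For every site and library, the lists hold, per the file headers, a tag count, length, summit, fold, FDR and p column. The deposited tag counts are whole and not normalized, the deposited fold is a ratio to background (above 8 in every list) and the deposited FDR is in percent. The p column, a score in the deposited lists, was not used. Total sequencing depth is not stated in the files, and intervals cover counting error only.

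Libraries were grouped by title. Members, named lists and tests were chosen with earlier results of these data known. Matched sites were tested with edgeR 4.0.16 (quasi-likelihood, two-sided; offsets are medians per library and chromosome), with DESeq2 1.42.0 as an alternative and limma 3.58.1 for lengths, summits and windows, in R 4.3.3. Shares and correlations used Python 3.11.15 and scipy 1.17.1. Scripts were tested on simulated data. P-values were adjusted over all sites of a fit. The summit test was planned for all matched sites but used 1272, since the start of a library's own peak is otherwise not known to within 100 bp.

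Sites were named by rule: the 10 with the most tags, the 5 longest and 5 shortest, the largest called tag changes and the called summit shifts. Since the planned fit called no tag change, sites with called changes were named from the fits added after seeing the data. Gene lists written for this comparison were not used, as no hg19 annotation was used here.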

Additional observations from a re-analysis of the deposited data

How the results depend on the processing

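With 2 libraries a line, the planned edgeR test over all matched sites called no tag change of any size. Peaks of single libraries were not listed, and 51 tags was the lowest listed value. The matched share of 3KR sites, 53.0%, became 50.3% with a reciprocal overlap of 50%, 45.1% with centres within 200 bp and 49.1% above a fold of 15. For tags at all matched sites, the counts of 0 and 0 (3KR and wild-type higher) became 406 and 419 with DESeq2, 399 and 476 with a replicate block, 15 and 14 without shared peaks (0 and 0 with length in the offset as well), 50 and 65 in peaks of like length, and 0 to 17 and 0 to 129 with each library left out. They stayed at 0 with offsets per library only, TMM, window offsets, length in the offset, limma, a mean of at least 100 tags and a reciprocal overlap of 50%. Lengths stayed at 0 and 0 under all alternatives tried.

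For sites of like peak length, 50 and 65 became 23 and 29 with DESeq2, 350 and 389 with a replicate block, 28 and 35 with length in the offset, 18 and 30 with a longest peak at most 15% over the shortest, 86 and 106 with at most 50%, 370 and 391 with the limit within each line only, and 0 to 47 and 0 to 67 with each library left out. Fewer or more sites enter at other length limits. For the other alternatives that moved a count, the cause was not tested. The 3 shifted summits became 4 to 18 with each library left out, 0 of 191 sites where starts were known to within 50 bp, and 6 of 3590 to within 200 bp. The 12 and 9 windows became 34 and 50 with offsets per library only, 55 and 45 with a replicate block, 4 and 5 with at least 40 sites, and 5 to 14 and 4 to 8 with each library left out. The windows higher in the wild-type line became 20 with 5 Mb windows and 4 with a reciprocal overlap of 50%.

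Replicate numbers are shared by the lines, but the labels do not say whether same-numbered libraries were paired, so the planned fit did not pair them. The deviations of same-numbered libraries from their line's mean correlated at 0.395 across the 9763 sites, as a hint from the data. For 50 named sites, 732 tag changes were recomputed: 590 moved by less than 1 standard error and 142 by more, and 57 changed sign. None of these sites was called in the fit of all matched sites.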
